A study of Mus musculus with 12 samples.

Results

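Interferon-induced genes were followed in satellite cells, the muscle stem cells, by taking every gene annotated as protein coding with a matching symbol. The symbols were those of the interferon receptors, the STAT factors of the interferon pathway and the interferon regulatory factors (IRF). Symbols of families or genes known for induction by interferon were added (Ifit, Ifitm, Ifi, Oas, Gbp, Irgm, *Iigp1*, Isg, Mx, *Rsad2*, *Usp18* and *Bst2*). This rule found 74 genes among the 25093 genes of the count table. A further 6 symbols matched but carry another annotation, among them *Mx1* and *Mx2*, so no Mx gene was included. The rule rests on names, and no library came from cells treated with interferon. Some genes carry a family name without being known as interferon targets, such as *Ifitm5*, a gene of bone-forming cells, and *Isg20l2*, a nuclease of ribosome assembly.

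All mice carried a tamoxifen-inducible Cre (CreERT2) placed behind the stop codon of *Pax7*, which restricts recombination to *Pax7*-expressing cells, together with a YFP reporter at the R26R locus. The control group had intact *Gli3* alleles (*Gli3*+/+), and the other carried floxed alleles from which tamoxifen removed an exon in satellite cells (*Gli3*∆/∆). Both genotypes received tamoxifen, were 3 to 4 months old and had a mixed 129SV and C57BL/6 background. Quiescent satellite cells (QSCs, 3 libraries per genotype, 2 to 3 pooled mice per library) were sorted from uninjured hindlimbs as α7-integrin+ CD34+ cells. Activated satellite cells (ASCs, 6 libraries of 1 mouse each) were sorted as α7-integrin+ VCAM1+ cells from muscles injured with cardiotoxin 3 days earlier, and both sorts removed cells carrying CD31, CD45, SCA1 or CD11b. In the count table the ASC columns are named by cell state and not by genotype. By the labels they are 3 libraries of either genotype. The ASC libraries were therefore treated as a single group and numbered 1 to 6, and the effect of *Gli3* within ASCs was not analysed here.

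Interferons bind paired receptor chains at the cell surface, IFNAR1 with IFNAR2 for type I interferons and IFNGR1 with IFNGR2 for interferon gamma. Receptor-bound kinases phosphorylate STAT proteins. Complexes with STAT2 and IRF9 bind the interferon-stimulated response element (ISRE), while STAT dimers bind the gamma-activated sequence (GAS). The induced proteins block viral entry, degrade or sense foreign nucleic acid, attack intracellular pathogens or damp the signal. Many of these genes are also switched on at a low level without infection, and several are typical of macrophages.

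Promoter sequences are shown first because many of these genes share a response element that the choice by name did not use. RefSeq promoters on GRCm38.p6 reached from 250 bases before the transcription start to 50 bases after it. They were given for 59 of 72 genes (71 promoters), and the 2 genes not reported here were not looked up. The repeated core of the ISRE, which is GAAA, any 2 bases and GAAA again, was found on either strand in a promoter of 32 of the 59 genes (54.2%) and of 3.99% of the 27025 genes with a RefSeq promoter. The GAS core TTCNNNGAA was found for 16 of the 59 (27.1%) and for 9.55% of all genes. Matches can overlap each other, are letters only and do not show that a factor was bound. The stretches below lie wholly before the start and are written 5′ to 3′ on the strand of the gene, with the bases of every ISRE match in capitals. They were chosen to show single, paired and triple matches and the copies that paralogs share.
*Isg15*, chr4:156200850-156200909, minus strand: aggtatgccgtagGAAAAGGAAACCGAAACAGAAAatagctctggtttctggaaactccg
*Gbp3*, chr3:142559980-142560039, plus strand: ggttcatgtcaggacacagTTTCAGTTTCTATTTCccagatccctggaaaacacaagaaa
*Ifit1*, chr19:34640779-34640838, plus strand: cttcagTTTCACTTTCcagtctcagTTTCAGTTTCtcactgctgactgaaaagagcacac
*Ifit3*, chr19:34583382-34583441, plus strand: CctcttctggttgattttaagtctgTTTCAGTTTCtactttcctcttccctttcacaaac
*Gbp2*, chr3:142620579-142620638, plus strand: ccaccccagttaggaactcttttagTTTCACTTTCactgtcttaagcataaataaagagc
*Irgm2*, chr11:58214888-58214947, plus strand: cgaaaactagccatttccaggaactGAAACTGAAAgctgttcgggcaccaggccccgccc
*Bst2*, chr8:71537562-71537621, minus strand: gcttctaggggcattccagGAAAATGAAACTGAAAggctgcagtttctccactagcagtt
*Oas3*, chr5:120777700-120777759, minus strand: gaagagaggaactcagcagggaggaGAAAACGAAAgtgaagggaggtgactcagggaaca
*Rsad2*, chr12:26456538-26456597, minus strand: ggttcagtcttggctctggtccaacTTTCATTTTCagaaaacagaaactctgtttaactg
*Ifi208*, chr1:173673582-173673641, plus strand: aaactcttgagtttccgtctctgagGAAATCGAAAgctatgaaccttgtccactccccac
*Ifi213*, chr1:173599311-173599370, minus strand: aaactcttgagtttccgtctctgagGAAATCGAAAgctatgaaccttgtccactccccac
*Ifi207*, chr1:173741816-173741875, minus strand: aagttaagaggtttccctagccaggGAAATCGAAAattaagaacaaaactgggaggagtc
*Ifi211*, chr1:173913049-173913108, minus strand: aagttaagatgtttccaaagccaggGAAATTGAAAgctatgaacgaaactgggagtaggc

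In *Isg15*, which encodes a ubiquitin-like modifier, 3 overlapping matches began 78, 72 and 66 bases before the start. Where the capitals read TTTC at either end, the match lies on the opposite strand. *Ifit1* had a pair of this kind, 104 and 85 bases before its start, in a stretch that also lies upstream of its divergent neighbour *Ifit1bl2*. The first capital of the *Ifit3* stretch ends a further match. The stretches of *Ifi208* and *Ifi213*, paralogs on chromosome 1, were the same over all 60 bases, and that of *Ifit3* was shared by its paralog *Ifit3b*. No ISRE match was found in the promoters of *Irf1*, which is known as a STAT target, and there the GAS match is shown in capitals instead.
*Irf1*, chr11:53769899-53769958, plus strand: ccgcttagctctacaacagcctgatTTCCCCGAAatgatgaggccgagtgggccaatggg

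Estimated counts were scaled to counts per 1000000 counts (CPM) with edgeR's TMM factors. A gene was called where edgeR gave a change of at least 1.2-fold with an adjusted p below 0.05 over all 25093 genes. The libraries held 36886130 to 65750131 counts in all, and no library was a copy of another of its group. The 3 *Gli3*+/+ QSC libraries held 11.3, 9.63 and 9.4 CPM of *Gli3* itself and the *Gli3*∆/∆ ones 9.58, 10.7 and 6.27, and the genotypes overlapped. Counts per gene do not separate the deleted exon, so they do not check the genotype labels. Summed CPM of 9 satellite cell markers ranged from 6161 to 7867 in QSCs and from 1452 to 2373 in ASCs. Summed CPM of 9 macrophage markers ranged from 10.7 to 29.1 in QSCs. In ASC libraries 1 to 6 the same sum was 662, 259, 368, 483, 813 and 5259, and all 9 markers were called higher in ASCs although the sort excluded CD45+ and CD11b+ cells. *Ptprc*, which encodes CD45, reached 209 CPM in ASC library 6. That library was also the highest in markers of dendritic cells (158 CPM), Schwann cells (955 CPM) and mural cells (1178 CPM). In bulk libraries, a change in the number of cells of a type and a change in RNA per cell cannot be told apart. Because library 6 stands apart, counts of called genes and many single values are also given without it.

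The 4 receptor genes were all transcribed in QSCs, and 1 of them, *Ifngr2*, was called between the states. *Ifnar1* was at 88 to 113 CPM (median 106) in the 6 QSC libraries and at 77.1 to 161 CPM (median 91.4) in the 6 ASC libraries. *Ifnar2* was at 21.3 to 30.3 CPM (median 24.8) in QSCs and at 19.4 to 51.6 CPM (median 22.9) in ASCs. For both chains of the type I receptor the ranges overlapped, with log2 fold changes (ASCs over QSCs) of −0.06 and 0.11 and edgeR adjusted p = 0.784 and 0.714. Without ASC library 6 *Ifnar1* was called lower, at −0.27 (edgeR adjusted p = 0.017).

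**Figure D1:**
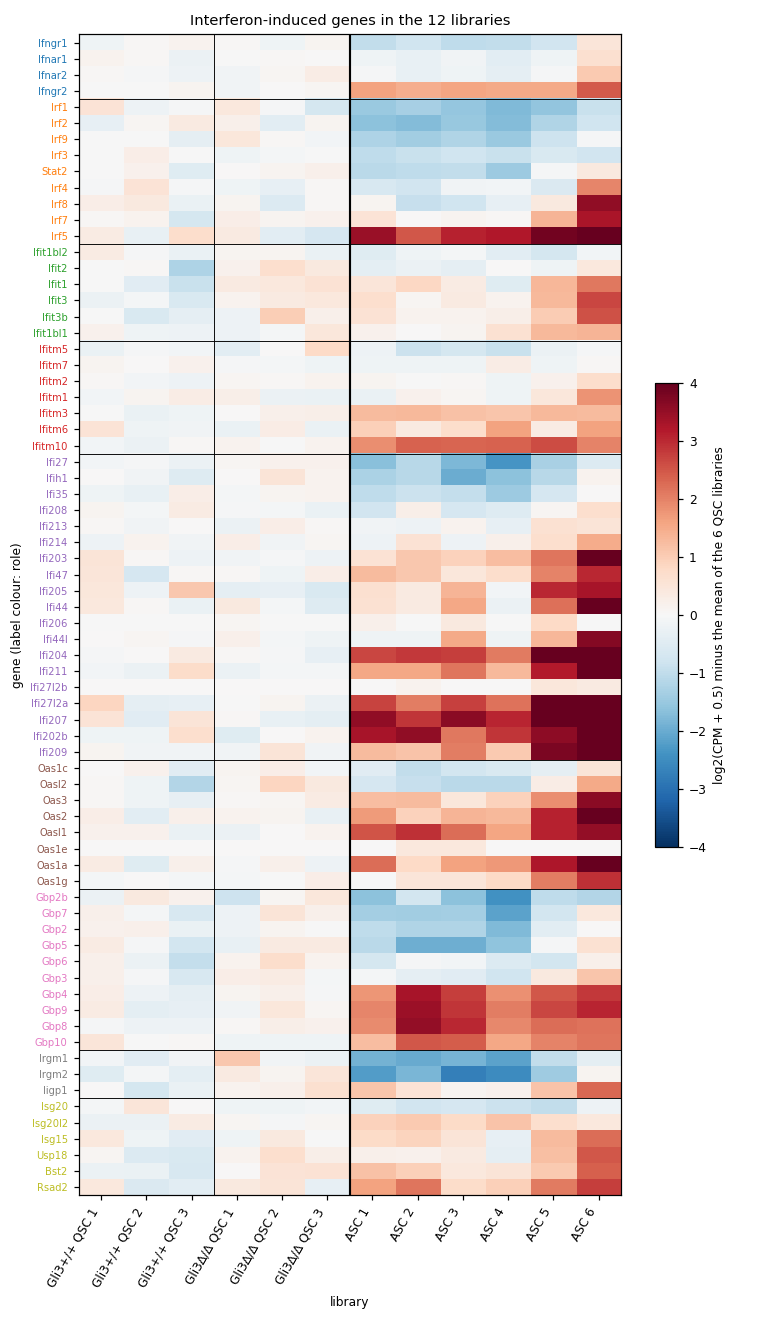
Level of 72 interferon-induced genes in the 12 libraries, one row per gene and one column per library, as log2(CPM + 0.5) minus the mean of the 6 QSC libraries. Genes are grouped by role (label colour) and sorted within a role by their log2 fold change in ASCs over QSCs. Colours are capped at 4 in either direction. ASC library 6 was the highest ASC library for 58 of all 74 genes, and for 30.3% of all genes measured.

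*Ifngr2*, the signal-transducing chain of the interferon gamma receptor, was at 11, 11 and 12.2 CPM in *Gli3*+/+ QSCs and at 10, 11.2 and 11.7 CPM in *Gli3*∆/∆ QSCs. The ASC libraries were at 35.1, 31.6, 34.3, 33, 32.9 and 63.6 CPM, all above every QSC library. The log2 fold change was 1.78 ± 0.18 (SE, edgeR adjusted p = 2.47e-06), and 1.55 (edgeR adjusted p = 1.3e-08) without ASC library 6. Its partner *Ifngr1*, the ligand-binding chain, went from 62.7 to 78.9 CPM (median 72.7) in QSCs to 34.9 to 100.2 CPM (median 38.2) in ASCs. ASC libraries 1 to 5 were below every QSC library, and ASC library 6 was above every one. *Ifngr1* was not called over all libraries, at −0.57 ± 0.25 (SE, edgeR adjusted p = 0.0695), and was called lower without that library, at −0.95 (edgeR adjusted p = 2.65e-06). The log2 fold changes of the receptor chains for interferon gamma thus had opposite signs. Per kilobase of exon, the level of the receptor genes in QSCs was 25 ± 2.41 CPM per kb for *Ifngr1*, 17.5 ± 1.44 for *Ifnar1*, 7.5 ± 0.954 for *Ifnar2* and 2.97 ± 0.195 for *Ifngr2* (mean ± SD, n = 6).

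STAT2 and IRF9 belong to the complex that carries the type I signal to the ISRE. *Stat2* was at 31.6, 35.8 and 22.4 CPM in *Gli3*+/+ QSCs, at 32, 34 and 36.1 in *Gli3*∆/∆ QSCs and at 14.9, 15.3, 15.8, 11.3, 30.4 and 42 CPM in ASC libraries 1 to 6. The groups overlapped, and *Stat2* was not called (log2 fold change −0.56 ± 0.30, edgeR adjusted p = 0.121). Without ASC library 6 it was called lower, at −0.90 (edgeR adjusted p = 0.00316). *Irf9* was called lower with all libraries, at −0.97 ± 0.24 (SE, edgeR adjusted p = 0.00374), going from 28.4 to 50.1 CPM (median 35.8) to 12.8 to 35 CPM (median 15.3). The highest ASC value was within the QSC range, and it was that of library 6.

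Besides *Irf9*, the IRF genes called lower in ASCs were *Irf1*, *Irf2* and *Irf3*. *Irf1*, an immediate target of STAT factors and an activator of inflammatory genes, was at 167, 99.2 and 110.5 CPM in *Gli3*+/+ QSCs and at 152, 111 and 70.1 CPM in *Gli3*∆/∆ QSCs. The ASC libraries were at 40, 44.9, 38.8, 33.3, 37.8 and 60.6 CPM, below every QSC library, and the log2 fold change was −1.47 ± 0.21 (SE, edgeR adjusted p = 5.47e-05). Summed CPM of 11 genes known to respond to tissue dissociation, such as *Fos* and *Egr1*, fell in the same direction, from between 40278 and 59955 in QSCs to between 1708 and 4682 in ASCs, and the part of dissociation in the fall of *Irf1* was not tested. *Irf2*, often described as the antagonist of IRF1, fell from 50.9 to 88.1 CPM (median 72.3) to 19.9 to 39 CPM (median 22.6) (log2 fold change −1.44 ± 0.20, edgeR adjusted p = 4.08e-05). *Irf3*, which is activated by nucleic acid sensors to start interferon production, fell from 58.8 to 80.1 CPM (median 65.1) to 32.3 to 43.4 CPM (median 36.5) (log2 fold change −0.83 ± 0.09, edgeR adjusted p = 6.37e-06). For *Irf1*, *Irf2* and *Irf3* no ASC library reached a QSC library, and the calls held in all 12 fits that left out 1 library.

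*Irf5* and *Irf7* were called higher in ASCs. *Irf5*, a factor of macrophages and dendritic cells, was at 0 to 0.783 CPM (median 0.323) in QSCs and at 8.16, 3.92, 6.25, 6.74, 11.1 and 50.7 CPM in ASC libraries 1 to 6. Every ASC library was above every QSC library, with a log2 fold change of 5.55 ± 0.92 (SE, edgeR adjusted p = 0.000204), and of 4.51 (edgeR adjusted p = 4.72e-05) without ASC library 6. The 6 ASC libraries had the same order in *Irf5* as in the summed macrophage markers, and the part of macrophage RNA in the rise was not tested. *Irf7*, which amplifies type I interferon production, rested on 1 library: it was at 5.73, 3.85, 4.11, 3.9, 10.5 and 40.5 CPM in ASCs and at 2.12 to 4.63 CPM (median 4.13) in QSCs, with a log2 fold change of 1.57 ± 0.59 (SE, edgeR adjusted p = 0.0362), and 0.51 (edgeR adjusted p = 0.143) without ASC library 6. *Irf8*, a factor of the myeloid lineage, and *Irf4*, a factor of lymphocytes, were not called. *Irf8* was at 5.86, 2.64, 2.91, 4.25, 7.32 and 68.4 CPM in ASCs against 3.61 to 7.33 CPM (median 5.73) in QSCs, and its log2 fold change turned from 1.46 ± 0.77 (SE, edgeR adjusted p = 0.123) to −0.31 (edgeR adjusted p = 0.358) without ASC library 6. *Irf4* turned likewise, from 0.49 ± 0.67 (SE, edgeR adjusted p = 0.548) to −0.83 (edgeR adjusted p = 0.067).

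**Figure D2:**
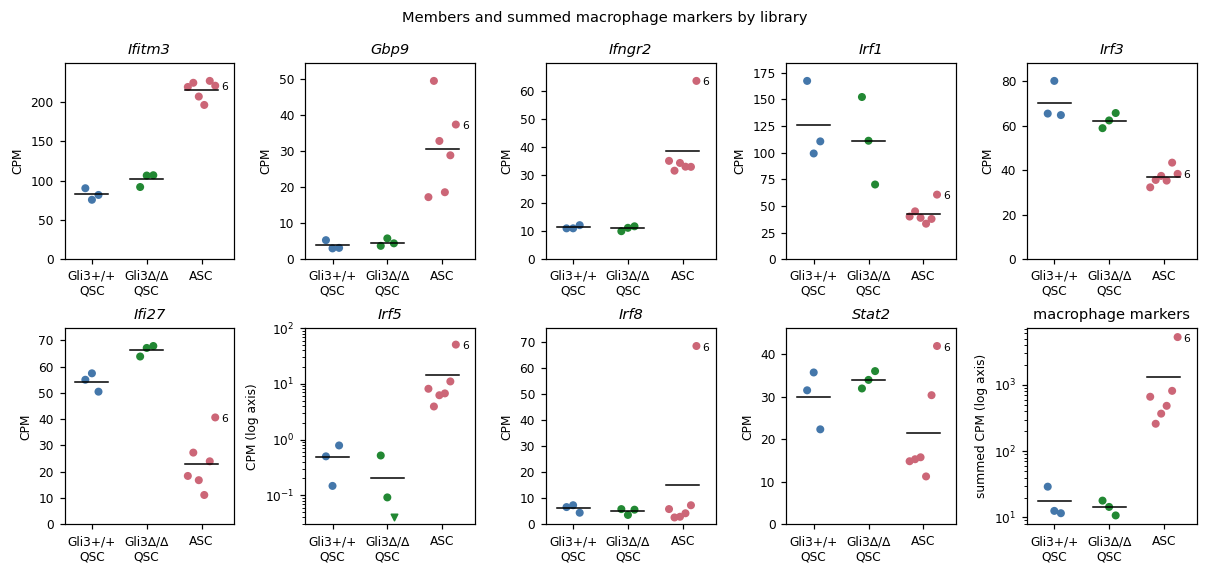
CPM of 9 interferon-induced genes and summed CPM of 9 macrophage markers in each library, with a line at each group mean and ASC library 6 marked. The axes of *Irf5* and of the markers are logarithmic, and a triangle marks the library in which *Irf5* was at 0. The 6 ASC libraries lay together above the QSC libraries in *Ifitm3* and below them in *Irf3*, whereas *Irf8* and *Stat2* were highest in ASC library 6.

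Over all 74 genes, 39 were called higher and 12 lower in ASCs. Between ASCs and QSCs most of the transcriptome differed, with 31.1% of all genes called higher and 27.8% lower, or 58.9% in either direction. The sort gate, the muscles taken, the pooling of mice and the mix of cells differed along with the state. They cannot be told apart from activation here. The median log2 fold change was 1.28 over the 74 genes and 0.012 over all genes. Every ASC library was above every QSC library for 21 of the 74 genes (20.6% of all genes) and below for 5 (19.1% of all genes). The direction differed with the level in QSCs. Of the 34 genes with a mean under 1 CPM in QSCs, 26 were called higher and 0 lower, where 26.4% and 14% of all genes at that level were. Genes without enough reads in any state were left out of the deposited table, so a gene near 0 in QSCs could be listed only through its ASC libraries. Of the 23 genes at 10 CPM or more, 3 were called higher and 11 lower, against 36.3% and 37.2% of all genes at that level. Between these levels, 10 of 17 genes were called higher and 1 lower (30.9% and 38.2% of all genes). Among the genes listed, those under 1 CPM in QSCs were mostly called higher, and those at 10 CPM or more mostly called lower or not called. The QSC level is also the base of the fold change, so this split only describes the list and was not tested. Without ASC library 6, 32 genes were called higher (30.1% of all genes) and 20 lower (30.6% of all genes), and the median was 0.65. Without ASC libraries 5 and 6, the highest in macrophage markers, the counts were 28 higher (30%) and 21 lower (29.7%), with a median of 0.41.

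**Figure D3:**
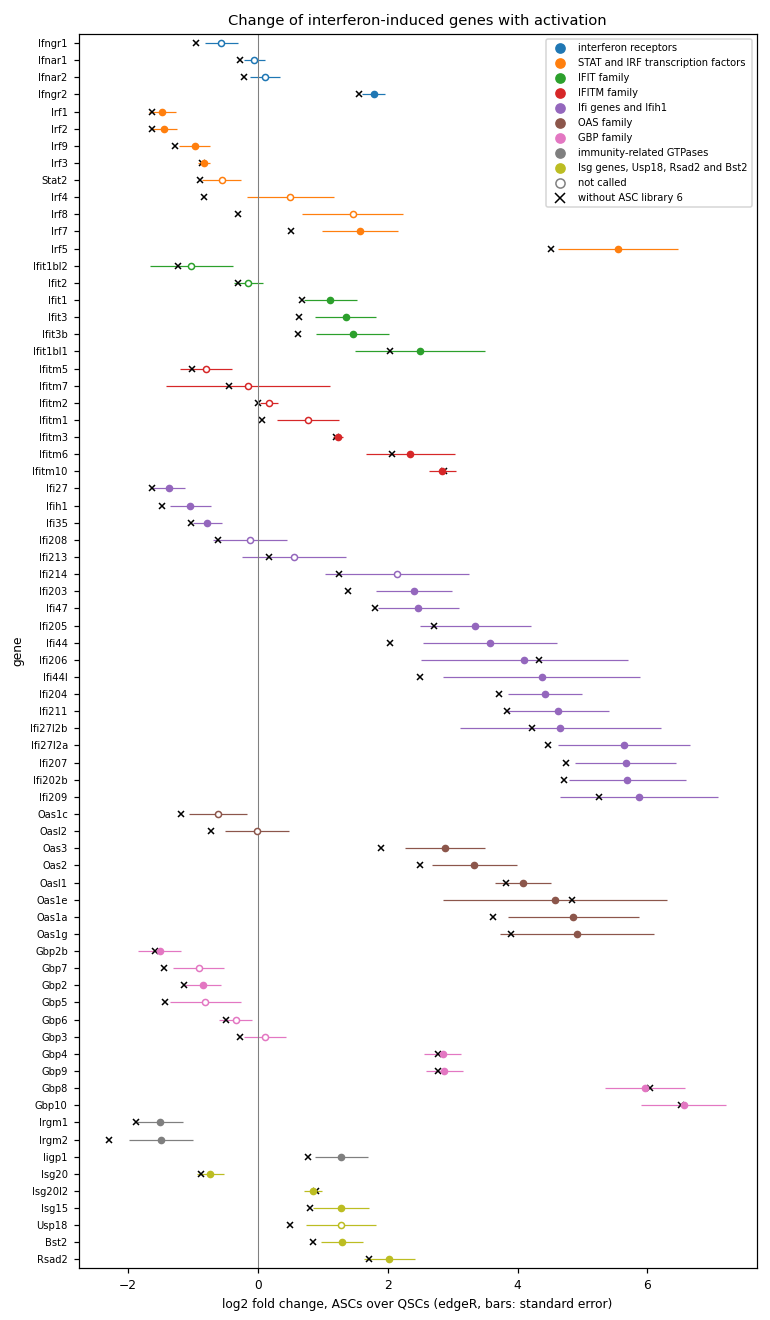
Log2 fold change (ASCs over QSCs, edgeR) of 72 of the genes with its standard error, grouped by role. Filled points were called and open points were not, and crosses give the value without ASC library 6. Of all genes called higher, 7 lost the call without that library and 32 kept it.

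The IFITM proteins restrict the entry of viruses at cell membranes, and *Ifitm3* was the most abundant of the 74 genes per kilobase in either state, at 136 ± 18.7 CPM per kb in QSCs and 318 ± 17.4 CPM per kb in ASCs (mean ± SD, n = 6 each). *Ifitm3* was at 90.3, 75.7 and 81.8 CPM in *Gli3*+/+ QSCs, at 91.9, 106 and 107 CPM in *Gli3*∆/∆ QSCs and at 219, 224, 207, 196, 227 and 221 CPM in ASCs. The ASC libraries lay close together and all above the QSC libraries, including the libraries lowest and highest in macrophage markers. The part of other cell types in the rise of *Ifitm3* was not tested. The log2 fold change was 1.24 ± 0.08 (SE, edgeR adjusted p = 6.78e-08), and 1.2 (edgeR adjusted p = 7.52e-08) without ASC library 6. *Ifitm2*, its neighbour on chromosome 7, was at 69.7 to 87.1 CPM (median 82.4) in QSCs and 71 to 131 CPM (median 84.4) in ASCs and was not called (log2 fold change 0.17 ± 0.13, edgeR adjusted p = 0.29). *Ifitm10* is named here after its values were seen: it went from 0.647 to 0.977 CPM (median 0.866) to 4.37 to 7.75 CPM (median 6.33), a log2 fold change of 2.83 ± 0.21 (SE, edgeR adjusted p = 1.92e-07). *Ifitm6* was the only other member of the family called (log2 fold change 2.35 ± 0.69, edgeR adjusted p = 0.0104), and no member was called lower over all libraries.

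IFIT proteins bind foreign RNA and block its translation. In this family 4 of 6 genes were called higher (31.1% of all genes), and 1 of the 4 kept its call without ASC library 6. *Ifit1* was at 1.19 to 4.2 CPM (median 3.06) in QSCs and at 3.91, 5.09, 3.46, 1.75, 7.37 and 12.9 CPM in ASC libraries 1 to 6, with 1.12 ± 0.41 (SE, edgeR adjusted p = 0.0332) over all libraries and 0.67 (edgeR adjusted p = 0.0858) without the last. *Ifit3* was at 1.61 to 3.83 CPM (median 2.83) in QSCs and at 4.71, 2.91, 3.68, 3.05, 7.45 and 20.2 CPM in ASCs, with 1.35 ± 0.47 (SE, edgeR adjusted p = 0.0245) and, without ASC library 6, 0.63 (edgeR adjusted p = 0.0496). Library 6 was the highest for both. *Ifit3b* behaved like *Ifit3* (log2 fold change 1.46 ± 0.57, edgeR adjusted p = 0.0414, and 0.61, edgeR adjusted p = 0.165 without library 6), and the estimates of these near-identical paralogs depend on how reads were shared out between them. *Ifit2*, the most abundant member at 10.2 to 40.5 CPM (median 26.8) in QSCs and 18.8 to 33.8 CPM (median 21.7) in ASCs, was not called (log2 fold change −0.15 ± 0.22, edgeR adjusted p = 0.581).

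Some OAS proteins make the second messenger that activates RNase L. Of the 8 OAS genes, 6 were called higher and 0 lower over all libraries (31.1% and 27.8% of all genes). Without ASC library 6, 6 were called higher and 1 lower (*Oas1c*). The 6 genes called higher were under 1 CPM in QSCs. The OAS genes of highest mean CPM in QSCs were the exceptions. *Oasl2* was at 9.86, 8.45 and 3.96 CPM in *Gli3*+/+ QSCs, 10.1, 18 and 12.8 CPM in *Gli3*∆/∆ QSCs and 5.86, 4.81, 4.28, 4.27, 11.9 and 28.6 CPM in ASCs, and it was not called (log2 fold change −0.02 ± 0.49, edgeR adjusted p = 0.98, and −0.73, edgeR adjusted p = 0.0589 without library 6). *Oas1c* was at 0.515 to 1.19 CPM (median 0.957) in QSCs and 0.206 to 1.5 CPM (median 0.468) in ASCs (log2 fold change −0.62 ± 0.44, edgeR adjusted p = 0.252, and −1.18, edgeR adjusted p = 0.0102 without library 6). Among the genes called higher, named after their values were seen, *Oasl1* rose from 0.134 to 0.374 CPM (median 0.315) to 1.78 to 8.25 CPM (median 4.62) (log2 fold change 4.08 ± 0.44, edgeR adjusted p = 4.97e-06) and *Oas2* from 0.323 to 0.849 CPM (median 0.714) to 1.61 to 19.9 CPM (median 2.73) (log2 fold change 3.33 ± 0.66, edgeR adjusted p = 0.000825, and 2.49, edgeR adjusted p = 0.000398 without library 6). *Oas1e* had 0 counts in all QSC libraries and 17 counts over the ASC libraries, at least 6.81-fold higher when the QSC group is set to 3 counts in all.

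Guanylate-binding proteins (GBP) are large GTPases that attack the vacuoles of intracellular pathogens, and their 2 gene clusters differed. In the cluster on chromosome 5 (105014150 to 105293698), 4 of 5 genes were called higher and 0 lower. In that on chromosome 3 (142493978 to 142638008), 0 of 5 were called higher and 2 lower. Of all genes, 31.1% were called higher and 27.8% lower. On chromosome 3, *Gbp2* fell from 15.9 to 22.3 CPM (median 20.1) to 5.41 to 19.9 CPM (median 8.74) (log2 fold change −0.85 ± 0.27, edgeR adjusted p = 0.0179, and −1.14, edgeR adjusted p = 0.000368 without library 6), with ASC library 6 within the QSC range. *Gbp7* was not called over all libraries (log2 fold change −0.91 ± 0.39, edgeR adjusted p = 0.0589) and was called lower without ASC library 6 (−1.45, edgeR adjusted p = 0.000182). On chromosome 5, *Gbp9* is named after its values were seen: it was at 5.29, 3.01 and 3.15 CPM in *Gli3*+/+ QSCs, 3.72, 5.79 and 4.42 CPM in *Gli3*∆/∆ QSCs and 17.2, 49.5, 32.8, 18.6, 28.9 and 37.4 CPM in ASCs. All ASC libraries were above all QSC libraries, and the highest was library 2, where the macrophage markers were lowest. Library 2 was also the highest ASC library in summed markers of myofibers (342 CPM) and of satellite cells (2373 CPM). In mural markers (461 CPM) only library 6 was higher. The part of these cells in the values was not tested. The log2 fold change of *Gbp9* was 2.87 ± 0.28 (SE, edgeR adjusted p = 2.48e-06), and 2.78 (edgeR adjusted p = 2.23e-06) without ASC library 6. *Gbp4* was also highest in ASC library 2, at 8.26, 25.2, 17.4, 8.76, 14 and 17.8 CPM in ASCs against 1.54 to 2.65 CPM (median 2.17) in QSCs (log2 fold change 2.84 ± 0.29, edgeR adjusted p = 3.48e-06). *Gbp4*, *Gbp8* and *Gbp9*, all called higher, overlap each other on the minus strand of chromosome 5. Their positions are 105115767 to 105139586, 105014150 to 105139540 and 105077630 to 105139539. Whether their calls are separate changes was not tested. Read sharing among the GBP paralogs makes single values uncertain, and the difference between the clusters was not tested.

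The immunity-related GTPases guard membranes against intracellular pathogens, and *Irgm1* and *Irgm2* regulate the other members. *Irgm1* fell from 21.1 to 62.3 CPM (median 26.2) to 6.16 to 21.8 CPM (median 7.54) (log2 fold change −1.51 ± 0.35, edgeR adjusted p = 0.00262, and −1.88, edgeR adjusted p = 7.81e-05 without library 6). *Irgm2* was at 9.34, 12.5 and 10 CPM in *Gli3*+/+ QSCs, 17.5, 14.6 and 19 CPM in *Gli3*∆/∆ QSCs and 2.43, 3.43, 1.56, 1.94, 4.72 and 14.5 CPM in ASCs. In ASC libraries 1 to 5 it was below every QSC library, and library 6 was within the QSC range, so that the log2 fold change went from −1.49 ± 0.49 (SE, edgeR adjusted p = 0.0187) to −2.29 (edgeR adjusted p = 7.88e-06) without it. The related *Iigp1*, named after its values were seen, was called in the other direction (log2 fold change 1.28 ± 0.41, edgeR adjusted p = 0.0171).

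Of the 19 genes of the Ifi group, *Ifih1* included, 13 were called higher and 3 lower in ASCs (31.1% and 27.8% of all genes). Without ASC library 6 the counts were 11 and 3 (30.1% and 30.6% of all genes). Without ASC libraries 5 and 6 they were 9 and 3 (30% and 29.7% of all genes). *Ifi27*, which encodes a small membrane protein, fell from 55, 57.5 and 50.5 CPM in *Gli3*+/+ QSCs and 63.8, 67.1 and 67.8 CPM in *Gli3*∆/∆ QSCs to 18.4, 27.3, 16.8, 11.2, 24 and 40.7 CPM in ASCs, all below the QSC libraries (log2 fold change −1.38 ± 0.25, edgeR adjusted p = 0.000391). *Ifih1*, which encodes the RNA sensor MDA5, fell from 16.5 to 34.3 CPM (median 24.2) to 5.65 to 26.2 CPM (median 10.2) (log2 fold change −1.04 ± 0.32, edgeR adjusted p = 0.0136, and −1.48, edgeR adjusted p = 1.69e-05 without library 6). The Ifi200 genes, DNA sensors and their relatives that lie together on chromosome 1 (173468485 to 174031810), went the other way, with 8 of 11 called higher and 0 lower. *Ifi203* rose from 2.43 to 4.29 CPM (median 2.64) to 4.5, 6.58, 5.86, 7.43, 14.3 and 53.1 CPM in ASC libraries 1 to 6 (log2 fold change 2.41 ± 0.59, edgeR adjusted p = 0.00356, and 1.39, edgeR adjusted p = 0.000726 without library 6). *Ifi207*, named after its values were seen, rose from 0.235 to 0.974 CPM (median 0.428) to 11.1, 6.75, 11.6, 7.75, 32.9 and 85.7 CPM (log2 fold change 5.66 ± 0.77, edgeR adjusted p = 4.04e-05, and 4.74, edgeR adjusted p = 3.14e-06 without library 6). Libraries 5 and 6 were the highest in both genes and in the macrophage markers, whose part was not tested, and these paralogs share reads.

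In the last group, *Bst2* encodes tetherin, which holds budding viruses at the cell surface. *Bst2* was at 6.12, 5.95 and 4.43 CPM in *Gli3*+/+ QSCs, 7.32, 10.9 and 10.9 CPM in *Gli3*∆/∆ QSCs and 17.1, 14.4, 9.93, 10.5, 15.5 and 39.9 CPM in ASCs, with a log2 fold change of 1.29 ± 0.32 (SE, edgeR adjusted p = 0.00399), and 0.85 (edgeR adjusted p = 0.00128) without ASC library 6. *Isg20l2* rose from 31.8 to 47.6 CPM (median 38.2) to 51 to 83.6 CPM (median 68.2) (log2 fold change 0.85 ± 0.14, edgeR adjusted p = 0.000188), and library 6 was its lowest ASC library. *Isg20*, an exonuclease, fell from 4.21 to 7.01 CPM (median 4.5) to 2.19 to 4.1 CPM (median 2.73) (log2 fold change −0.73 ± 0.20, edgeR adjusted p = 0.00794), with all ASC libraries below all QSC libraries. *Usp18*, which removes ISG15 from proteins and damps the type I receptor, was not called (log2 fold change 1.28 ± 0.54, edgeR adjusted p = 0.0575, and 0.50, edgeR adjusted p = 0.245 without library 6), at 0.626 to 2.24 CPM (median 1.35) in QSCs and 1.46, 1.42, 1.68, 0.823, 3.42 and 8.99 CPM in ASCs. *Isg15* and *Rsad2*, named after their values were seen, rose by 1.28 ± 0.43 (SE, edgeR adjusted p = 0.0222) and by 2.02 ± 0.39 (SE, edgeR adjusted p = 0.000677), and *Isg15* lost its call without ASC library 6 (0.80, edgeR adjusted p = 0.0521).

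Between the genotypes in QSCs, 0 of the 74 genes were called by edgeR, where 0.351% of all genes (88) were called, 0.187% higher and 0.163% lower, and DESeq2 and limma also called 0 of them. At an unadjusted p under 0.05 edgeR had 9 genes higher and 2 lower in *Gli3*∆/∆ QSCs, against 3.2% and 3.91% of all genes. All 3 *Gli3*∆/∆ libraries were above all 3 *Gli3*+/+ libraries for 13 of the 74 genes (7.39% of all genes) and below for 4 (5.75% of all genes). The median log2 fold change was 0.13 over the 74 genes and −0.031 over all genes. *Gli3*+/+ QSC library 3 was the lowest QSC library for 26 of the 74 genes, where it was the lowest for 24.7% of all genes.

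**Figure D4:**
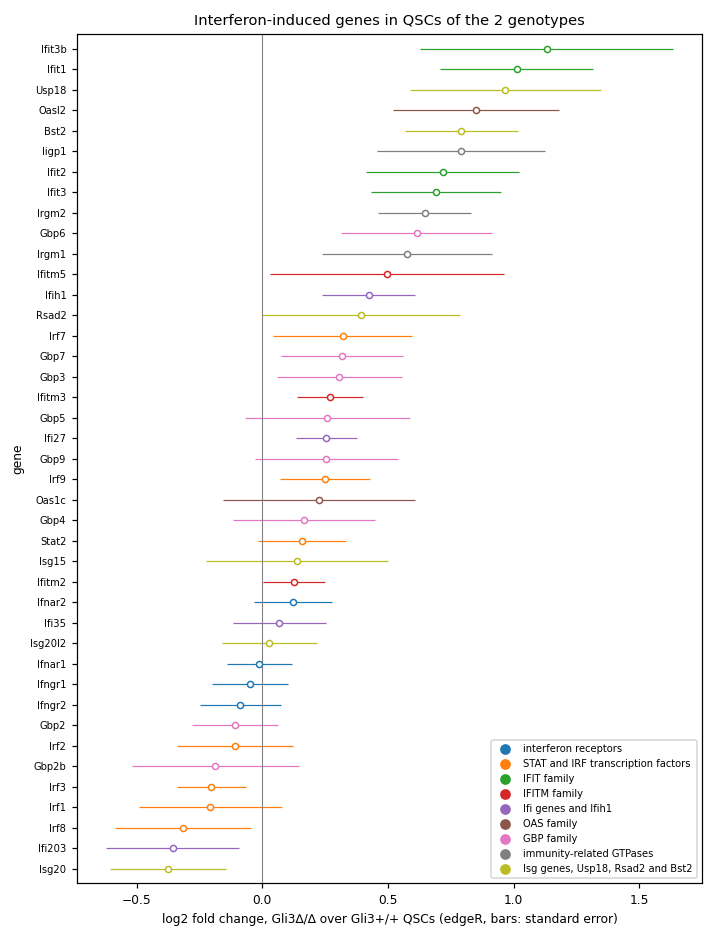
Log2 fold change (*Gli3*∆/∆ over *Gli3*+/+ QSCs, edgeR) of the 41 interferon-induced genes shown with a mean of at least 50 counts in the QSC libraries, with the standard error, coloured by role. None of them was called, and the highest values among them were those of *Ifit3b*, *Ifit1*, *Usp18*, *Oasl2* and *Bst2*.

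Among genes with a mean of at least 50 counts in QSCs, the largest rises were those of *Ifit3b*, *Ifit1*, *Usp18*, *Oasl2* and *Bst2*. *Bst2* had the lowest adjusted p of the 74 genes, with 0.79 ± 0.23 (SE, edgeR adjusted p = 0.375) and the library values given above. *Ifit1* was at 2.6, 1.78 and 1.19 CPM in *Gli3*+/+ QSCs and at 3.52, 3.67 and 4.2 CPM in *Gli3*∆/∆ QSCs, without overlap, and had a log2 fold change of 1.01 ± 0.31 (SE, edgeR adjusted p = 0.424). *Usp18* was at 1.3, 0.676 and 0.626 CPM and 1.4, 2.24 and 1.52 CPM (log2 fold change 0.97 ± 0.38, edgeR adjusted p = 0.638), also without overlap. *Oasl2* had 0.85 ± 0.33 (SE, edgeR adjusted p = 0.627), and *Ifit3b* 1.13 ± 0.50 (SE, edgeR adjusted p = 0.708) with overlapping groups. *Irgm2* did not overlap between the genotypes (log2 fold change 0.65 ± 0.18, edgeR adjusted p = 0.382). Over the alternatives the adjusted p of *Bst2* ranged from 0.0681 to 0.866, and that of *Ifit1* from 0.0954 to 0.869.

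The largest falls among genes with a mean of at least 50 counts were small: −0.38 for *Isg20*, −0.36 for *Ifi203*, −0.32 for *Irf8*, −0.21 for *Irf1* and −0.20 for *Irf3* (log2, edgeR adjusted p = 0.844, 0.89, 0.9, 0.94 and 0.869). *Irf1* overlapped between the genotypes, as its library values above show. The receptor genes had log2 fold changes of −0.01 (*Ifnar1*), 0.12 (*Ifnar2*), −0.05 (*Ifngr1*) and −0.09 (*Ifngr2*), with edgeR adjusted p = 1, 0.932, 0.987 and 0.959. *Stat2* and *Irf9* were at 0.16 and 0.25 (edgeR adjusted p = 0.924 and 0.881). *Gbp10*, named after its values were seen, had 20 counts over the QSC libraries, all in *Gli3*+/+, and was at least 7.35-fold lower in *Gli3*∆/∆ QSCs when that group is set to 3 counts in all. It was not called, with edgeR adjusted p = 0.427. Among other genes under that count, named after their values were seen, *Ifi205* was lower without overlap, at 0.624, 0.206 and 1.23 CPM and 0.134, 0.152 and 0.0395 CPM (log2 fold change −2.65 ± 0.78, edgeR adjusted p = 0.4), and *Gbp8* was higher without overlap, at 0.0499, 0 and 0 CPM and 0.0958, 0.168 and 0.138 CPM, with few counts and edgeR adjusted p = 0.71. Neither was called.

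The promoters were set beside both comparisons. In ASCs against QSCs, where 31.1% of all genes were called higher and 27.8% lower, 16 of the 32 genes with an ISRE match were called higher and 6 lower (median log2 fold change 1.18), and 12 of the 27 genes without one were called higher and 5 lower (median 0.77). The genes with the ISRE spanned from −1.52 to 5.66, so a match went with either direction. In QSCs, 22 of the 32 genes with a match had a log2 fold change above 0 in *Gli3*∆/∆ (median of all 32, 0.29), where 45% of all genes did, and 11 of the 27 without one did (median −0.09). No gene of either kind was called there, and the difference between the kinds was not tested.

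**Figure D5:**
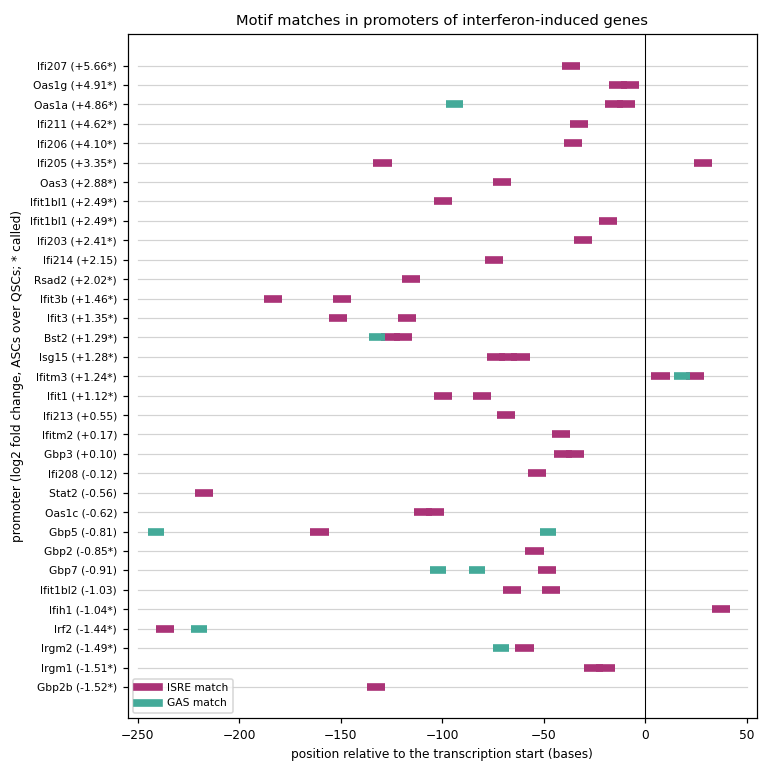
Positions of ISRE and GAS matches relative to the transcription start in the promoters with an ISRE match, sorted by the log2 fold change of the gene in ASCs over QSCs (in brackets, with a star where called). Each line spans 300 bases, *Ifit1bl1* has 2 promoters, and matches before the start occurred in genes that rose, such as *Ifi207*, and in genes that fell, such as *Irgm1*.

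Other genes of the pathway were called in both directions between ASCs and QSCs. Of all genes, 31.1% were called higher and 27.8% lower there (30.1% and 30.6% without ASC library 6). In 4 lists of such genes, 0 were called between the genotypes. Of 18 sensors and adaptors of nucleic acid, 8 were called higher and 6 lower in ASCs (median log2 fold change 0.05), and without ASC library 6 the counts were 8 and 9. Those that rose included *Tmem173*, which encodes STING (log2 fold change 2.81 ± 0.14, edgeR adjusted p = 1.14e-08), and those that fell *Mavs*, the adaptor of RNA sensors (log2 fold change −0.58 ± 0.11, edgeR adjusted p = 0.000742). Of 10 receptor kinases and feedback genes, 5 were higher and 2 lower (median 0.61), and 5 and 4 without that library. *Socs3*, a feedback inhibitor of cytokine receptors, had the deepest fall in that list, from 2430.0, 2412 and 2227 CPM in *Gli3*+/+ QSCs and 1875, 2058 and 1995 CPM in *Gli3*∆/∆ QSCs to 170.4, 123, 139, 97.2, 159.7 and 366 CPM in ASCs (log2 fold change −3.62 ± 0.30, edgeR adjusted p = 4.83e-07). The part of tissue dissociation in the fall of *Socs3* was not tested. Of 48 further interferon-stimulated genes, 19 were higher and 9 lower (median 0.43). Without ASC library 6 the balance turned, with 18 higher and 21 lower. Of the 11 antigen processing genes 8 were higher and 0 lower (median 1.03; 7 and 0 without library 6), among them *Tap1*, a peptide transporter (log2 fold change 1.2 ± 0.18, edgeR adjusted p = 8.69e-05). The pathway genes named in this paragraph were chosen after their values were seen.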

How the data were processed

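RNA of sorted QSCs and ASCs was sequenced as 12 polyA libraries. The authors ran salmon on the GENCODE vM19 transcripts (GRCm38), summed transcripts to genes with tximport and deposited estimated counts, keeping genes with enough reads in more than 1 sample. Reads that fit several paralogs are shared out between them, and 48.0% of the values were not whole numbers, so counts were rounded. The authors' deposited tables of their own DESeq2 comparisons (mean, shrunken fold change, standard error, p-values) were used only for the annotation of gene types.

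Genes were tested with edgeR 4.0.16 in R 4.3.3 (quasi-likelihood test after TMM scaling, no further filter, p adjusted by Benjamini-Hochberg over all 25093 genes). A call needed a change of at least 1.2-fold and an adjusted p below 0.05. *Gli3*∆/∆ QSCs were compared with *Gli3*+/+ QSCs in 6 libraries, and ASCs with the mean of both QSC groups in all 12. CPM per kb use the union of exons in GENCODE vM21, on the same build, where 96.3% of identifiers have the same version, and gene positions come from there. The alternatives run were limma 3.58.1 (voom, libraries weighted by quality), DESeq2 1.42.0 and its size factors, filterByExpr, a minimum of 10 counts per library, a replicate block in QSCs, calls at any fold and each library left out. The fits without ASC libraries 5 and 6 and against 1 QSC genotype were added after the data were seen.

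The members and lists were chosen with earlier results of these data known. Named by rule are the receptor, STAT and IRF genes, the 2 genes of highest mean CPM in QSCs of each other role, and the 5 largest rises and 5 largest falls between genotypes among genes with a mean of at least 50 counts in QSCs. Of the genes that this rule takes, 2 are counted among the 74 but not reported here. Promoters are RefSeq's, and for 53 of 71 the bases after the start lie in a GENCODE transcript of the gene. The fits were tested on simulated counts of 25093 genes, with changes placed only in genes with a mean of at least 50 counts. There edgeR recovered 43% of 2-fold and 90% of 4-fold changes between QSC genotypes, and 58% and 83% between ASCs and QSCs. Among unchanged genes it called 14 and 9. Each simulation changed 100 genes at either fold, far fewer than were called between ASCs and QSCs, and held no outlying library. Recovery in the real comparison of ASCs with QSCs may therefore differ. Recovery in genes with fewer counts was not simulated. QSC libraries are pools of mice, and p-values measure the spread between libraries. For a single value, an exact permutation test of 3 against 3 libraries cannot go below p = 0.1.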

Additional observations from a re-analysis of the deposited data

Results flagged for a closer look

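In the 6 ASC libraries, 20 of the 32 genes named by rule had 1 library far from the others, and in all 20 it was ASC library 6, the highest. The measure is the gap between that library and the next, as a share of the whole range. In these genes it passes Dixon's critical value for 6 samples, and chance passes about 1 in 20 groups if no library stands apart. ASC library 6 was the highest ASC library for 30.3% of all genes. The share of all genes that pass was not determined, so the count does not set these genes apart. Among receptors the measure was 0.899 for *Ifngr1*, 0.891 for *Ifngr2*, 0.856 for *Ifnar2* and 0.809 for *Ifnar1*. Among transcription factors it was 0.929 for *Irf8*, 0.897 for *Irf4*, 0.848 for *Irf5*, 0.818 for *Irf7* and 0.661 for *Irf9*. Among the other genes it was 0.808 for *Ifit3b*, 0.799 for *Ifi203*, 0.76 for *Bst2*, 0.756 for *Irgm2*, 0.744 for *Ifih1*, 0.737 for *Ifit3*, 0.704 for *Oas1c*, 0.688 for *Oasl2*, 0.682 for *Usp18*, 0.678 for *Ifitm2* and 0.669 for *Gbp7*. The same library held 5259 CPM of macrophage markers against 259 to 813 in the other ASC libraries, and 2091 CPM summed over the 74 genes against 853 to 1196. The part of these markers in the values was not tested.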

How the results depend on the processing

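Between the genotypes in QSCs, none of the 74 genes was called under any alternative run, while the genes called in all were 88 with edgeR, 384 with DESeq2, 48 with at least 10 counts in every library and 58 to 103 when 1 library was left out. The median log2 fold change of the 74 genes was 0.08 to 0.29 with 1 library left out. In these edgeR fits 3 to 12 of the 74 genes were higher and 1 to 3 lower at an unadjusted p under 0.05. The 3 came without *Gli3*∆/∆ QSC library 2 and the 12 without *Gli3*+/+ QSC library 1. With the replicate number as a block 79 genes and 0 of the 74 were called; deviations of same-numbered libraries correlated at −0.221, −0.005 and −0.033, so the libraries share only a number. No block could be fitted for ASCs against QSCs because the ASC libraries carry no replicate number.

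For ASCs against QSCs, 30 to 39 genes were called higher and 11 to 20 lower, with a median of 0.65 to 1.49, when 1 library was left out, and ASC library 6 gave the 20 and the 0.65. Calls lost in some of the 12 fits that left out 1 library were those of *Gbp2*, *Ifi206*, *Ifi27l2b*, *Ifi44l*, *Ifit1*, *Ifit1bl1*, *Ifit3*, *Ifit3b*, *Irf7*, *Isg15* and *Oas1e*, all higher except *Gbp2*. limma voom with quality weights called 30 higher and 21 lower (median 0.57), where it called 7855 and 8239 of all 25093 genes. Leaving out ASC libraries 5 and 6 also gave 21 lower (median 0.41). With at least 10 counts in every library, 49 of the 74 genes were tested, and 20 were called higher and 13 lower (median 0.09). In that fit 5522 of all 14666 genes tested were called higher and 5104 lower. The median was 1.66 against *Gli3*+/+ QSCs alone and 0.9 against *Gli3*∆/∆ QSCs alone, and 1.28 also with the genes at 0 in QSCs set to their bound.

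Among the genes named by rule, changes of sign occurred only among log2 fold changes that were not called. With limma voom they were −0.71 for *Irf4*, −0.17 for *Ifnar2* and −0.3 for *Irf8* in ASCs, and 0.00 for *Ifngr1* between the genotypes. Without ASC libraries 5 and 6 they were −0.74 for *Irf4*, −0.23 for *Ifnar2*, −0.51 for *Irf8* and −0.01 for *Ifitm2*. Against *Gli3*+/+ QSCs alone they were 0.42 for *Oasl2* and 0.22 for *Ifit2*. With 1 library left out, ASCs over QSCs, the ranges were −0.27 to 0.05 for *Ifnar1*, −0.22 to 0.22 for *Ifnar2*, −0.83 to 0.72 for *Irf4*, −0.31 to 1.69 for *Irf8* and −0.73 to 0.18 for *Oasl2*. Between the genotypes they were −0.1 to 0.05 for *Ifnar1*, −0.14 to 0.05 for *Ifngr1*, −0.51 to 0.04 for *Irf1*, −0.29 to 0.09 for *Irf2*, −0.00 to 0.81 for *Irgm1*, −0.08 to 0.27 for *Isg20l2*, −0.01 to 0.47 for *Oas1c* and −0.00 to 0.31 for *Stat2*. Genes not named by rule also changed sign, such as *Gbp3*, whose log2 fold change in ASCs over QSCs went from 0.1 to −0.45 without ASC libraries 5 and 6. The cause of these changes was not tested.

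Genes near 0 in QSCs had few counts, and paralogs share reads, so fold changes of low Ifi, Oas and Gbp genes are imprecise. In simulated counts, 43% of 2-fold changes between the genotypes were recovered among genes with a mean of at least 50 counts. Genes with fewer counts were not covered.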

Other observations

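The 6 genes that matched by name but are not annotated as protein coding were measured too. *Mx1* and *Mx2* encode dynamin-like antiviral GTPases and are carried in inactive form by many laboratory strains. *Mx1* was at 0.225, 0.485 and 0.313 CPM in *Gli3*+/+ QSCs, at 0.306, 0.274 and 0.434 CPM in *Gli3*∆/∆ QSCs and at 0.639, 0.72, 0.505, 0.478, 2.7 and 8.95 CPM in ASC libraries 1 to 6, with a log2 fold change of 2.77 ± 0.77 (SE, edgeR adjusted p = 0.00804) over QSCs, and of 1.51 (edgeR adjusted p = 0.0173) without library 6. *Mx2* went the other way, from 3.69, 2.32 and 1.61 CPM and 4.17, 3.79 and 5.19 CPM in QSCs to 1.28, 1.42, 0.889, 0.849, 0.893 and 3.65 CPM in ASCs (log2 fold change −1.15 ± 0.39, edgeR adjusted p = 0.0232, and −1.66, edgeR adjusted p = 0.000157 without library 6). *Oas1b*, a flavivirus resistance gene, was at 3.54, 4.98 and 2.51 CPM and 4.23, 5.85 and 5.23 CPM in QSCs and at 0.358, 0.308, 0.601, 0.319, 1.53 and 1.36 CPM in ASCs, and fell with −2.53 ± 0.46 (SE, edgeR adjusted p = 0.000388), or −2.84 (edgeR adjusted p = 8.65e-05) without library 6, whereas 6 of the 8 protein-coding OAS genes were called higher and 0 lower. *Ifi30*, which encodes a lysosomal thiol reductase and is annotated as a lncRNA in the deposited table, was at 8.56, 11.2 and 7.81 CPM and 12.2, 13 and 9.29 CPM in QSCs and at 37.1, 22.3, 29.3, 27, 38.3 and 133 CPM in ASCs (log2 fold change 2.22 ± 0.42, edgeR adjusted p = 0.000534, and 1.55, edgeR adjusted p = 2.69e-06 without library 6). None of the 6 was called between the genotypes.

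*Xaf1*, *Tlr3* and *Tgtp1*, interferon-stimulated or sensor genes from the other lists, were singled out after their values were seen because the QSC genotypes did not overlap. *Xaf1* was at 11.6, 11.6 and 8.52 CPM in *Gli3*+/+ QSCs and at 19.8, 29.8 and 19.3 CPM in *Gli3*∆/∆ QSCs (log2 fold change 1.09 ± 0.21, edgeR adjusted p = 0.0982). *Tlr3*, a receptor for double-stranded RNA, was at 7.12, 7.44 and 4.47 CPM and 11.6, 11.6 and 11.5 CPM (log2 fold change 0.84 ± 0.21, edgeR adjusted p = 0.267). *Tgtp1*, a GTPase with a close paralog, was at 0.2, 0 and 0.38 CPM and 1.15, 1.08 and 1.14 CPM (log2 fold change 2.55 ± 0.90, edgeR adjusted p = 0.554). None of these 3 differences was called.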
